A study of Homo sapiens with 2 samples.

Results

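The 78 nuclear genes whose symbols name them as proteins of the mitochondrial ribosome were followed in A549 cells, a human lung adenocarcinoma line, after knockdown of DEPDC1B. They are all the rows of the deposited table whose symbol is MRPL or MRPS with a number and, where present, a letter A to C, which gave 49 genes of the large subunit (MRPL) and 29 of the small subunit (MRPS) among 39720 symbols. The cells had been infected with lentivirus carrying either shDEPDC1B, a hairpin RNA aimed at DEPDC1B, or shNC, a negative control hairpin, in both cases with 5 µg/mL polybrene, and were harvested on day 2. Each group has 1 library of total RNA, with 18862371 counts in shDEPDC1B and 18647290 in shNC, so no difference has a replicate check, no p-value was computed, and the values compare these libraries rather than conditions. Infected cells were used as a bulk population, so fewer cells of a type and less RNA per cell cannot be told apart.

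Mitochondria keep a ribosome of their own, which makes the few membrane proteins of the respiratory chain that mitochondrial DNA encodes. Its ribosomal RNAs are transcribed inside the organelle, whereas all its proteins are encoded in the nucleus, made in the cytosol and imported. Some of these proteins descend from bacterial ribosomal proteins, and others occur only in mitochondria. The small subunit reads the messenger RNA, and the large subunit joins amino acids and leads the growing chain to the inner membrane through an exit tunnel.

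In short, transcripts of the mitochondrial ribosome were mostly more abundant in the shDEPDC1B library, by a median of 0.53 on the log2 scale, with the same median in the large and the small subunit to within 0.01. For members below 2000 nucleotides the medians were close to those of all genes of like length, and with a fit on transcript length and GC content subtracted the median was 0.15. Among the 78 genes, MRPL23, MRPL28 and MRPS18A were the 3 that were at least 2-fold higher, and MRPS10 had the lowest ratio.

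DEPDC1B itself had 39 counts in shDEPDC1B and 329 in shNC, or 2.14 CPM in shDEPDC1B and 17.1 CPM in shNC, a log2 ratio of -2.997 [-3.51, -2.52]. CPM are counts rescaled so that every library has the same effective total. CPM and ratios are scaled by the trimmed mean of M-values (TMM), ratios are shDEPDC1B over shNC, and square brackets hold exact 95% intervals that cover counting error only. The 6 epithelial markers looked for summed to 11484 CPM in shDEPDC1B and 11059 in shNC. They were not all high, and the lowest count among them was 65 in shDEPDC1B and 37 in shNC. Markers of other cell types were low, with 37.3 CPM in shDEPDC1B and 41.8 CPM in shNC over 6 leukocyte genes (CD3E at 0 in both libraries), 12.2 in shDEPDC1B and 10.6 in shNC over 6 fibroblast genes (DCN at 0 in both) and 0.603 in shDEPDC1B and 0.778 in shNC over 6 endothelial genes (KDR at 0 in both). Genes were assessed if either library held at least 30 counts, as 13850 did, and a gene is called higher or lower when the ratio is at least 1.5-fold and the interval excludes equality.

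Promoters of 4 members show what kind of start sites these genes have. They are the members with the highest and the lowest ratio in each subunit by symbol. Only the 69 members with a window in the RefSeq promoter table (GRCh38.p14) were considered. MRPL23, MRPL2, MRPL10, MRPL13, MRPL15, MRPL21, MRPL35, MRPS28 and MRPS36 had no entry. Each window runs 5′ to 3′ on the strand of the gene from 250 bases before the start to 50 after it. The windows are those of MRPL28 (chr16:370489-370788, minus strand, the highest of the large subunit), MRPL49 (chr11:65121933-65122232, plus strand, the lowest of the large subunit), MRPS18A (chr6:43687742-43688041, minus strand, the highest of the small subunit) and MRPS10 (chr6:42217812-42218111, minus strand, the lowest of the small subunit). Capitals mark matches, on either strand, to the core motifs NRF1 CGCATGC, ETS CCGGAAG, YY1 ATGGCGG, SP1 GGGCGG and the E-box CACGTG, which were chosen because nuclear respiratory factor NRF1, the ETS factor GABPA and YY1 are known regulators of nuclear genes for mitochondria.
MRPL28: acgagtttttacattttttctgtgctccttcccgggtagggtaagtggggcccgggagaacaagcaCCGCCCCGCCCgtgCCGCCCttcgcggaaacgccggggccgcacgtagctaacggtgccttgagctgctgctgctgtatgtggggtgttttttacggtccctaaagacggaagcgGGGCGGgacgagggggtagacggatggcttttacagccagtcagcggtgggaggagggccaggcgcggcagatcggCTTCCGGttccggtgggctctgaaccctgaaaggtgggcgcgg
MRPL49: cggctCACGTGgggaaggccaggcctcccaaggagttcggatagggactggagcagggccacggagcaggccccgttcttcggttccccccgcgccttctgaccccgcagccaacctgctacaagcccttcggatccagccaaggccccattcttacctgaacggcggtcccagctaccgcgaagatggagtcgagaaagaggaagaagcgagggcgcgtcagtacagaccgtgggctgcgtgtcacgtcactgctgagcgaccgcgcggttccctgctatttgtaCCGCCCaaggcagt
MRPS18A: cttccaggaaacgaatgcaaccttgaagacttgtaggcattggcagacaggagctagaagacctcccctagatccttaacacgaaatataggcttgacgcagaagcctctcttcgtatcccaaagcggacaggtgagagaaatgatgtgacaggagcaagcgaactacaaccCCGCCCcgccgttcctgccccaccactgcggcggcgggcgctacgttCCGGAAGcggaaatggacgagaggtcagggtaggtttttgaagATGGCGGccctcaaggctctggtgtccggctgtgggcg
MRPS10: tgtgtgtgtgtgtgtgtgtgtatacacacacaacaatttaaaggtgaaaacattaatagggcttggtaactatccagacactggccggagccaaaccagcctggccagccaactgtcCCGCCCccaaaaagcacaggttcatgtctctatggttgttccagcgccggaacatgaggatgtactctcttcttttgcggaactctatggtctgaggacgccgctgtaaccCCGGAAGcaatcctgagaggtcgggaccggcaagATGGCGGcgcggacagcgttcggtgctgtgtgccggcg

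The highest and the lowest gene with an MRPS symbol held the ETS and YY1 cores at nearly the same places. The protein of MRPS18A sits in the large subunit, however. MRPS11, the highest of the small subunit by place of the protein, held neither core in its window. MRPS18A has CCGGAAG from base -31 and ATGGCGG from base 13, counted from the start site, and MRPS10 has them from bases -22 and 13, while their SP1 matches start at -78 in MRPS18A and -133 in MRPS10. MRPL28 has the ETS core on the other strand from base 8, and MRPL49 has neither the ETS nor the YY1 core in its window. Over all 69 members with a window, 42.0% held the ETS core, against 19.7% of the promoters of 9830 assessed protein-coding genes and 10.7% of all 27305 promoters. The YY1 core, whose letters hold an ATG, was in 34.8% of members, 10.6% of assessed protein-coding genes and 5.72% of all promoters. The NRF1 core was in 10.1% of members, 6.54% of assessed protein-coding genes and 4.13% of all promoters. SP1 (60.9% of members, 70.8% of assessed protein-coding genes, 44.6% of all promoters) and the E-box (8.70%, 10.2% and 7.43%) were not more frequent in members than in the promoters of assessed protein-coding genes. The median log2 ratio of members was 0.53 for the 29 members with the ETS core and 0.53 for the 40 without it, 0.51 for the 24 with the YY1 core and 0.56 for the 45 without it, and 0.58 for the 7 with the NRF1 core and 0.53 for the 62 without it. For SP1 it was 0.53 for the 42 with it and 0.53 for the 27 without, and for the E-box 0.64 for the 6 with it and 0.52 for the 63 without. These are descriptions of letters in a window and not of binding.

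All 78 members were assessed, with 147 to 2773 counts in shDEPDC1B and 109 to 2728 in shNC. Their summed level was 4809 CPM in shDEPDC1B and 3551 CPM in shNC, a log2 ratio of the sums of 0.44 [0.42, 0.45]. The ratio was above 1 for 73 members, against 51.9% of all assessed genes. The interval lay above equality for 67 members and below it for 3 (MRPL49, MRPS27 and MRPS10), against 38.9% and 34.9% of all assessed genes. At least 2-fold higher were 3 members and 2-fold lower 0, against 5.86% and 8.97%. At least 1.5-fold higher were 32 of 78 (41.0%), and none was at least 1.5-fold lower, where the same rules called 19.2% of all assessed genes higher and 19.6% lower. Scaled by library totals instead, 20 members were at least 1.5-fold higher. Their median log2 ratio was then 0.43 over all 78, against -0.06 over all assessed genes. The share of all assessed genes called under that scaling is not given here. The median log2 ratio was 0.53, against 0.04 over all assessed genes. The members lay closer together than genes in general: their SD was 0.31, against 0.73 for the 11471 genes with 100 counts or more in either library, a limit that all 78 members passed.

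**Figure D1:**
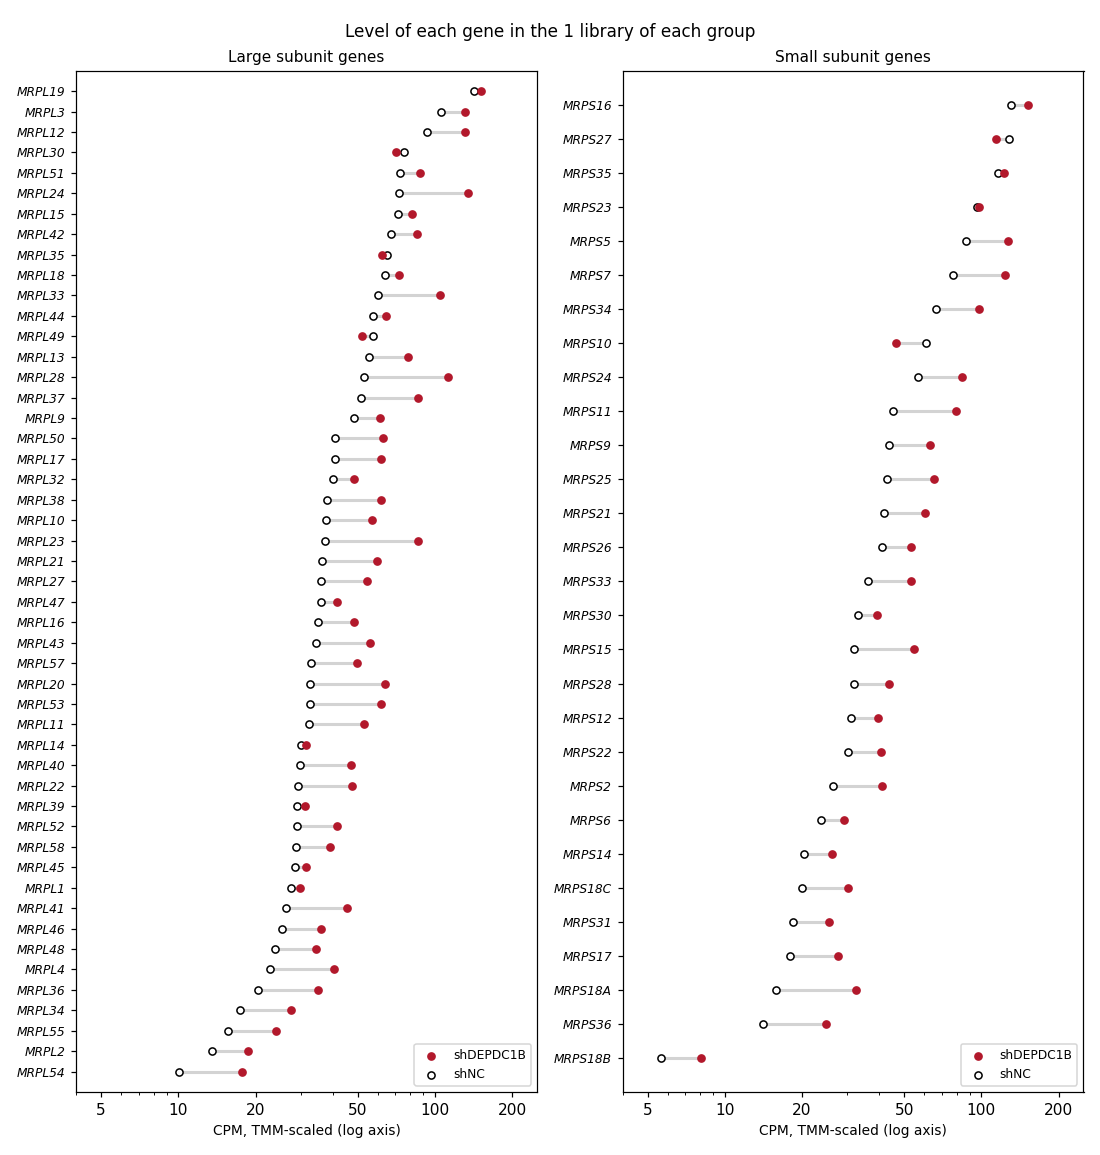
Level of each member in CPM (log axis), with shDEPDC1B as filled red and shNC as open points, large subunit on the left and small subunit on the right, each ordered by the shNC level. In 73 of 78 genes the red point lies to the right of the open one; the exceptions are MRPL35, MRPL30, MRPL49, MRPS27 and MRPS10.

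The large and the small subunit had the same median and differed in how many genes passed the 1.5-fold line. The median log2 ratio was 0.53 in the 49 large subunit genes and 0.52 in the 29 small subunit genes, a difference of 0.01. At least 1.5-fold higher were 24 of 49 (48.98%) and 8 of 29 (27.6%), against 19.2% of all assessed genes. At a threshold of 25% higher the order was the other way round, with 34 of 49 (69.4%) and 22 of 29 (75.9%), against 31.5% of all assessed genes; 1 member was lower by that factor, against 28.8% of all assessed genes. The member just inside the threshold was MRPL17 at 0.593 and the one just outside it was MRPS18C at 0.584, where 1.5-fold is 0.585. MRPS18C passes when the estimated counts are not rounded. Proteins of 2 genes with an S symbol, MRPS30 and MRPS18A, sit in the large subunit, and MRPS36 is now known as a component of the 2-oxoglutarate dehydrogenase complex. With these placed so, the medians were 0.53 and 0.52, and 25 of 51 and 6 of 26 genes passed 1.5-fold. By symbol, large subunit genes were shorter (median 1387 nucleotides, against 1640) and richer in GC (median 51.5%, against 47.3%). With the fit on transcript length and GC content subtracted, 4 of 49 (8.16%) and 4 of 29 (13.8%) were at least 1.5-fold higher. The share of all genes was then 13.0%. The part of length and GC in the gap between the subunits was not tested.

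Summed counts weight the abundant genes more, and by this measure the subunits differed. The log2 ratio of the sums was 0.48 [0.46, 0.50] for the large and 0.37 [0.35, 0.40] for the small subunit, a difference of 0.10. The large subunit held 62.5% [62.2, 62.8] of member counts in shDEPDC1B and 60.8% [60.5, 61.2] in shNC. The most counted genes were then set apart, ranked by their counts in shNC, the library that the ratio divides by. That ranking favours genes with low ratios, so how much of the gap abundant genes carry was not tested. The 4 small subunit genes with the most counts in shNC (MRPS16, MRPS27, MRPS35 and MRPS23) made up 27.0% of the counts of their subunit in shDEPDC1B and 33.8% in shNC, with a joint log2 ratio of 0.05 [0.01, 0.09]. The corresponding 4 of the large subunit (MRPL19, MRPL3, MRPL12 and MRPL30) made up 16.1% in shDEPDC1B and 19.3% in shNC, with 0.21 [0.17, 0.26]. Without these the sums gave 0.53 [0.51, 0.55] for 45 large subunit genes and 0.52 [0.49, 0.54] for 25 small subunit genes.

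**Figure D2:**
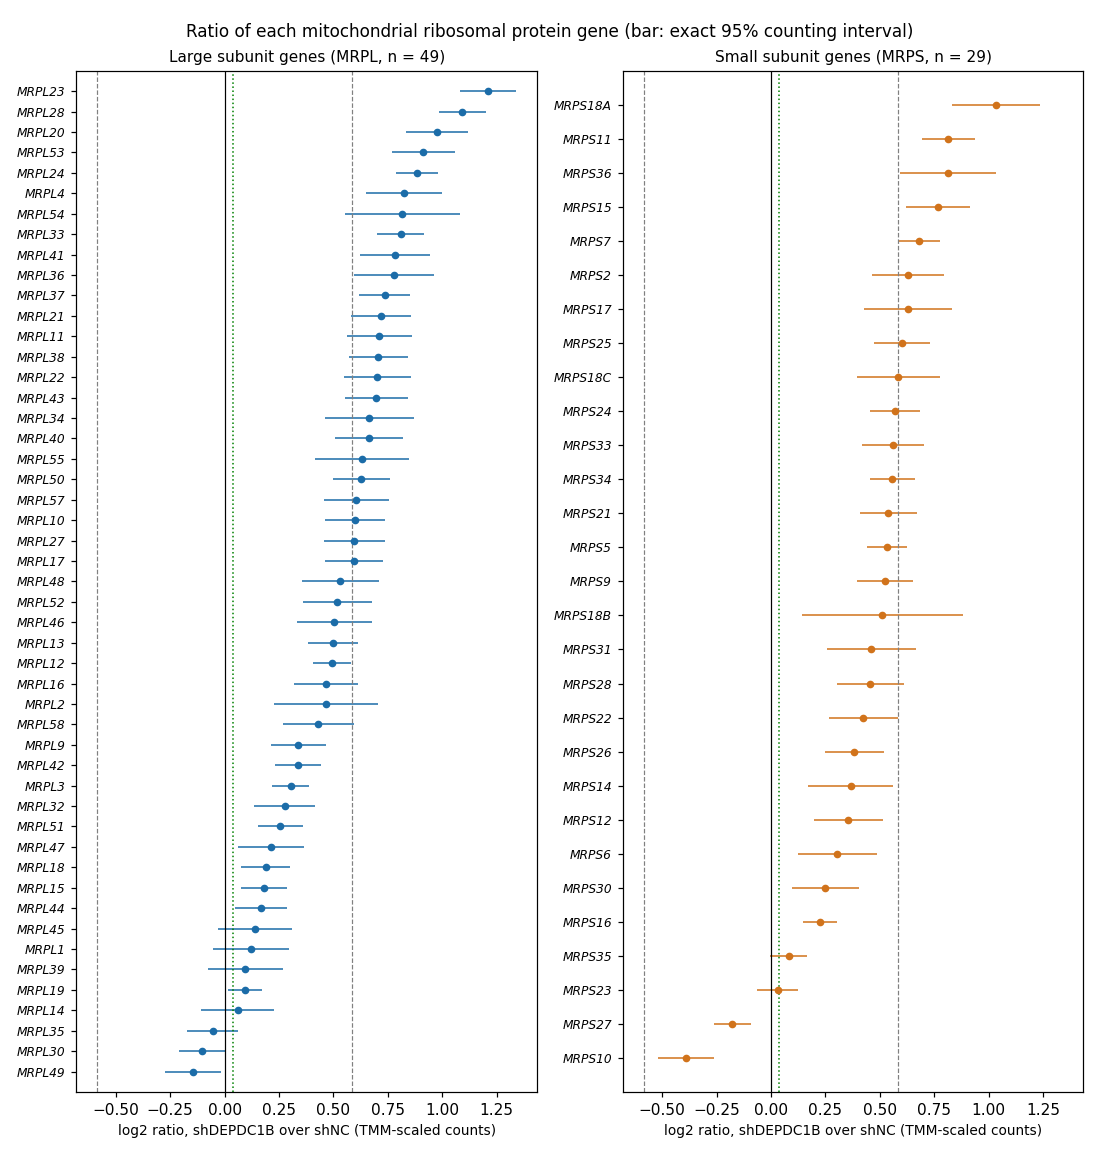
Log2 ratio of each member, shDEPDC1B over shNC, with exact 95% counting intervals as bars, large subunit on the left and small subunit on the right. Dashed lines mark 1.5-fold in either direction and the green dotted line the median of all assessed genes (0.04); the bulk of both panels lies right of 0, from MRPL23 at 1.21 to MRPS10 at -0.39.

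The 6 genes with the highest ratios in the large subunit included MRPL23 and MRPL24, both of the exit tunnel list, and MRPL4, which lines the tunnel wall in bacteria and was not in that list. MRPL23 (chromosome 11, 1947278 to 1984522, plus strand, GRCh38 coordinates of GENCODE 29), the homolog of a bacterial protein at the mouth of the tunnel, had 86.0 CPM in shDEPDC1B and 37.2 CPM in shNC, a log2 ratio of 1.21 [1.08, 1.34]. MRPL24 (chromosome 1, 156737303 to 156741590), another exit tunnel protein, had 134 CPM in shDEPDC1B and 72.7 CPM in shNC (0.88 [0.79, 0.98]). Of the 7 listed, 4 were at least 1.5-fold higher, these 2 included, against 19.2% of all assessed genes. That is near the share in the large subunit as a whole, 24 of 49 (48.98%). MRPL39 and MRPL45, of which the second binds the inner membrane as a protein, were at 0.10 [-0.08, 0.27] and 0.14 [-0.03, 0.31]. MRPL44, also listed, was at 0.17 [0.05, 0.29].

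MRPL28 (chromosome 16, 366969 to 371289), the first of the promoters shown, had 112 CPM in shDEPDC1B and 52.7 CPM in shNC, a log2 ratio of 1.09 [0.98, 1.20]. MRPL20, which like MRPL28 has a counterpart in bacteria, had 64.1 CPM in shDEPDC1B and 32.6 CPM in shNC (0.98 [0.83, 1.12]). MRPL53, a protein found in mitochondrial but not bacterial ribosomes, had 61.3 CPM in shDEPDC1B and 32.6 CPM in shNC (0.91 [0.77, 1.06]). MRPL4 stood at 40.3 CPM in shDEPDC1B and 22.8 CPM in shNC (0.82 [0.65, 0.997]). For none of these do the intervals reach equality.

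The stalk of the large subunit recruits translation factors, and 2 of its 3 genes were at least 1.5-fold higher. Among all large subunit genes the share was 24 of 49 (48.98%), and among all assessed genes 19.2%. MRPL11, at the base of the stalk, had 52.9 CPM in shDEPDC1B and 32.3 CPM in shNC (0.71 [0.56, 0.86]). MRPL10, which anchors the stalk, had 56.8 CPM in shDEPDC1B and 37.6 CPM in shNC (0.60 [0.46, 0.74]). MRPL12, the flexible stalk protein, which is also known to bind the mitochondrial RNA polymerase, had 130 CPM in shDEPDC1B and 92.7 CPM in shNC (0.49 [0.40, 0.58]), and its ratio fell short of 1.5-fold. The 3 intervals overlap one another, but after the fit on length and GC the values were 0.39 for MRPL11, 0.35 for MRPL10 and -0.29 for MRPL12.

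At the lower end of the large subunit 3 genes had ratios below 1. MRPL49 (chromosome 11, 65122183 to 65127371), specific to mitochondria, had 51.7 CPM in shDEPDC1B and 57.2 CPM in shNC, a log2 ratio of -0.14 [-0.27, -0.02]. MRPL30 was at -0.10 [-0.21, 0.01] and MRPL35 at -0.05 [-0.17, 0.06], both conserved from bacteria and within counting error of equality. MRPL14, a conserved protein at the interface of the subunits, had 31.5 CPM in shDEPDC1B and 30.2 CPM in shNC (0.06 [-0.11, 0.23]). MRPL19, the member with the most counts in shNC, had 151 CPM in shDEPDC1B and 141 CPM in shNC (0.09 [0.02, 0.17]), and its sign turned under scaling by library totals (-0.0034).

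Among genes with an MRPS symbol, MRPS18A (chromosome 6, 43671303 to 43687791, minus strand) was highest. It had 32.5 CPM in shDEPDC1B and 15.9 CPM in shNC, a log2 ratio of 1.03 [0.83, 1.24]. By place of the protein MRPS18A belongs to the large subunit, and MRPS11 was the highest of the small one. MRPS18A, MRPS18B and MRPS18C are 3 human homologs of 1 bacterial protein, and they take different places in the ribosome. MRPS18C had 30.1 CPM in shDEPDC1B and 20.1 CPM in shNC (0.58 [0.39, 0.78]), an interval that lies below the point estimate of MRPS18A. MRPS18B had 8.06 CPM in shDEPDC1B and 5.65 CPM in shNC (0.51 [0.14, 0.88]), but its deposited values become whole hundredths only when multiplied by 7, as a mean over gene copies would, so its level and interval are uncertain. The values of MRPS36 and MRPL45 became whole hundredths when multiplied by 2, so their levels and intervals are uncertain in the same way.

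MRPS11, a conserved protein of the small subunit platform, had 79.6 CPM in shDEPDC1B and 45.3 CPM in shNC, a log2 ratio of 0.81 [0.69, 0.94]. MRPS36 followed at 24.8 CPM in shDEPDC1B and 14.1 CPM in shNC (0.81 [0.59, 1.03]). MRPS15 was at 0.77 [0.62, 0.92], MRPS7 at 0.68 [0.58, 0.77] and MRPS2 at 0.63 [0.47, 0.80]. All 3 have bacterial counterparts, that of MRPS7 in the head of the subunit, and their intervals overlap.

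MRPS10 (chromosome 6, 42206801 to 42217865, minus strand) had the lowest ratio of all members. It had 46.6 CPM in shDEPDC1B and 61.0 CPM in shNC, a log2 ratio of -0.39 [-0.52, -0.26], a ratio below 1 by more than counting error and short of 1.5-fold lower. MRPS27, a mitochondrial RNA-binding protein, had 114 CPM in shDEPDC1B and 128 CPM in shNC (-0.18 [-0.26, -0.09]). MRPS23 and MRPS35, both specific to mitochondria, were at 0.03 [-0.06, 0.13] and 0.08 [-0.005, 0.17], and neither interval excludes equality. MRPS16, the most abundant small subunit gene in CPM, had 152 CPM in shDEPDC1B and 130 CPM in shNC (0.22 [0.15, 0.30]), and MRPS30 was at 0.25 [0.09, 0.41].

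The medians by evolutionary origin lay close together. The 46 members listed with a bacterial homolog had a median log2 ratio of 0.54, with 20 at least 1.5-fold higher (43.5%). The 31 members listed as specific to mitochondria had a median of 0.51, with 11 at least 1.5-fold higher (35.5%). The same rule called 19.2% of all assessed genes higher. The second list holds MRPS18A, which is among the 11, and MRPS18B, although both have a bacterial homolog, so the split by origin is approximate. MRPS36 was counted in neither list.

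Levels of different genes were compared after division by the length of the longest annotated coding transcript, as counts scaled to length and to a fixed sum. On this scale the members summed to 7650 in shDEPDC1B and 6732 in shNC. The most abundant in each library was MRPL33, a small conserved protein, at 465 in shDEPDC1B and 331 in shNC, followed in shNC by MRPL12 (292 in shDEPDC1B and 259 in shNC) and MRPS24 (260 in shDEPDC1B and 218 in shNC). MRPL24 (312 in shDEPDC1B and 211 in shNC), MRPS34 (216 in shDEPDC1B and 183 in shNC) and MRPS35 (150 in shDEPDC1B and 176 in shNC) completed the 3 highest of each subunit in shNC. The medians were 77.9 in shDEPDC1B and 74.5 in shNC for large subunit genes and 67.9 in shDEPDC1B and 68.5 in shNC for small subunit genes. The spread of levels was as wide in shDEPDC1B as in shNC, with an SD across members of 0.98 in shDEPDC1B and 0.97 in shNC in log2 units, and the order of the genes was much the same (Spearman rho 0.94 over 78 genes, which share the libraries and the annotated lengths). Lengths of the isoforms that A549 cells use were not measured: MRPL42, whose longest coding transcript has 15582 nucleotides, comes out lowest of the large subunit at 12.6 in shDEPDC1B and 12.4 in shNC.

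Transcript length moved with the ratio over all genes, and most members are short. The median length was 1516 nucleotides over members and 3403 over the 13068 assessed genes with a known length, and 71 members were shorter than that median. Over all these genes the Spearman correlation of the log2 ratio with length was -0.51 and with GC content 0.38, and over the 78 members -0.24 and 0.48. The 46 members of 1000 to 2000 nucleotides had a median log2 ratio of 0.52, against 0.48 for the 2197 assessed genes of those lengths, and 17 of 46 members were at least 1.5-fold higher (37.0%), against 39.7% of the genes. The 13 members below 1000 nucleotides had a median of 0.66, against 0.58 for 533 genes. The 15 members of 2000 to 4000 nucleotides had 0.37, against 0.15 for 5067 genes. The 4 longer members had 0.45, against -0.34 for 5271 genes. These 4 are long only by their longest annotated coding transcript. The median length of their coding transcripts was 920 nucleotides for MRPL42, 580 for MRPS23, 1281 for MRPS25 and 744 for MRPS33. Some of the 15 members of 2000 to 4000 nucleotides, such as MRPL49, MRPL19 and MRPL27, also have a median coding transcript below 2000 nucleotides. Others, such as MRPL50, do not.

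**Figure D3:**
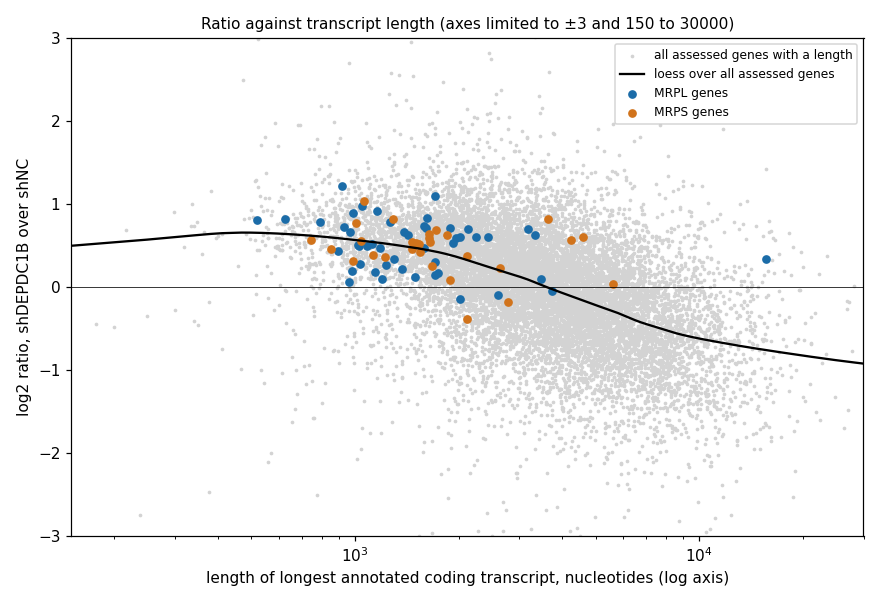
Log2 ratio, shDEPDC1B over shNC, against the length of the longest annotated transcript (log axis) for all assessed genes with a length (grey), large subunit genes (blue) and small subunit genes (orange), with the loess curve over all genes in black. Members below 2000 nucleotides scatter on both sides of the curve, while the few annotated with more than 4000 nucleotides lie above it. The median coding transcript of those few is below 2000 nucleotides.

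When a linear fit on log2 length and GC content over all assessed genes was subtracted, which took up 24.7% of the variance, the median of the members was 0.15, against 0.04 for all genes. Above 0 after the fit were 54 of 78 members (69.2%), against 53.5% of all genes. At least 1.5-fold higher were 8 members (10.3%) and none lower, where the rules called 13.0% of all genes higher and 13.5% lower. The 8 were MRPL42 (1.22), MRPL50 (0.93), MRPL22 (0.87), MRPL28 (0.61), MRPS11 (0.85), MRPS33 (0.83), MRPS25 (0.79) and MRPS36 (0.71), named after their values were seen, and all but MRPL28 and MRPS36 are annotated with transcripts of 3176 nucleotides or more. For MRPL42, MRPS33 and MRPS25 the median coding transcript is much shorter, so their residuals rest on the longest annotated transcript. With a loess on length alone, 46 of 78 members (59.0%) were above the curve, against 50.4% of all genes. The subunits then lay at 0.14 for the large and 0.05 for the small one, while after the fit on length and GC the order was the other way round, at 0.08 and 0.19. Low members after the fit on length and GC were MRPL14 (-0.57), MRPL49 (-0.42) and MRPS10 (-0.41), and 20 of the 73 members above 0 were below it after the fit, MRPL12 (-0.29), MRPS24 (-0.23) and MRPS34 (-0.22) among them.

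The RNA scaffold of the ribosome can be set beside its proteins. RNR2, the ribosomal RNA of the large subunit, took up 2.83% of all counts in shDEPDC1B and 2.09% in shNC, a log2 ratio of 0.54 [0.53, 0.54]. RNR1, that of the small subunit, took up 0.131% in shDEPDC1B and 0.114% in shNC, a log2 ratio of 0.30 [0.27, 0.33]. The sources used here do not say how ribosomal RNA was handled before sequencing, and its part in these levels was not tested. The messenger RNAs of mitochondrial DNA are not analysed here.

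Subunits with other symbols lay in the same range. Of 6 such genes (MRPL58, which the rule takes in by its present symbol, among them), 3 passed 1.5-fold upwards and none downwards. The shares of all assessed genes were 19.2% and 19.6%. The median log2 ratio was 0.57, and 0.21 after the fit on length and GC. AURKAIP1, a small subunit protein, was at 0.86 [0.73, 1.002] and GADD45GIP1, a large subunit protein, at 0.71 [0.56, 0.86]. DAP3, a GTP-binding protein of the small subunit, was at 0.44 [0.36, 0.52], MRPL58, a peptide release factor built into the large subunit, at 0.43 [0.27, 0.59], and PTCD3, which binds RNA, at -0.26 [-0.35, -0.18].

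Genes that build the ribosome had mostly higher levels in shDEPDC1B. Of 27 assembly and rRNA modification genes, 11 (40.7%) passed 1.5-fold upwards and none downwards, against 19.2% and 19.6% of all assessed genes. Their median was 0.47, and 0.23 after the fit on length and GC. MPV17L2, an inner membrane protein needed for assembly, had 351 counts in shDEPDC1B and 122 in shNC (1.60 [1.30, 1.91]), and C1QBP, a matrix protein, was at 0.84 [0.80, 0.89]. FASTKD2, which binds the large rRNA, was at -0.45 [-0.56, -0.34] and METTL15, a methyltransferase for the small rRNA, at -0.37 [-0.56, -0.18].

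Of 16 translation factors, 3 (18.75%) were at least 1.5-fold higher and 1 lower, a share of higher genes near the 19.2% of all assessed genes. Their median was 0.16, and 0.13 after the fit on length and GC, against 0.15 for the members after that fit. The initiation factor MTIF3 had 627 counts in shDEPDC1B and 280 in shNC (1.24 [1.04, 1.45]), and the recycling factor MRRF was at 0.60 [0.46, 0.75]. GUF1, a ribosome-bound GTPase, had 468 counts in shDEPDC1B and 838 in shNC (-0.76 [-0.93, -0.60]), and LRPPRC, which stabilises mitochondrial messenger RNAs, was at -0.36 [-0.40, -0.32]. Of 10 genes of mitochondrial transcription and RNA processing, 2 were at least 1.5-fold higher and 1 lower, again near the shares of all assessed genes (19.2% and 19.6%), and the median was 0.03, or 0.23 after the fit. The RNA polymerase POLRMT was at 0.73 [0.63, 0.83] and HSD17B10, a subunit of mitochondrial RNase P, at 0.60 [0.50, 0.70], the transcription initiation factor TFB2M at -0.58 [-0.74, -0.42] and the termination factor MTERF1 at -0.65 [-0.88, -0.42].

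The regulators themselves lay on both sides of equality. Of 9, none was at least 1.5-fold higher and 1 was lower, against 19.2% and 19.6% of all assessed genes, with a median of -0.09. NRF1 was at 0.52 [0.28, 0.75] and ESRRA at 0.34 [0.21, 0.48], whereas the coactivator genes PPARGC1B and PPRC1 were at -0.72 [-1.03, -0.41] and -0.51 [-0.66, -0.38]. GABPA, of the ETS family, was at -0.13 [-0.29, 0.04], within counting error of equality.

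Against the 2 gene families closest to it in kind, the mitochondrial ribosome had a slightly lower median and a wider spread. Cytosolic ribosomal protein genes had a median log2 ratio of 0.60 and an SD of 0.21 (83 assessed genes, 45 or 54.2% at least 1.5-fold higher, from RPS9 at 0.93 and RPS15 at 0.89 to RPL22L1 at -0.02 and RPL7L1 at -0.28). Nuclear respiratory chain genes had 0.59 and 0.23 (78 assessed genes, 40 or 51.3% at least 1.5-fold higher, from NDUFS7 at 1.10 and NDUFB7 at 1.09 to ATP5F1A at 0.17 and NDUFS1 at 0.11). The same rule called 19.2% of all assessed genes higher. Among those of 1000 to 2000 nucleotides it called 39.7%, and among shorter ones 48.8%. The median transcript length was 1181 nucleotides for the cytosolic ribosome and 1265.5 for the respiratory chain. After the fit on length and GC the medians were 0.15 for the mitochondrial ribosome, 0.14 for the cytosolic ribosome and 0.25 for the respiratory chain. The values of RPS9 and NDUFS1 became whole hundredths only when multiplied by 5 and 2, so their levels are uncertain as well. With 1 library per group these differences between families have no test.

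**Figure D4:**
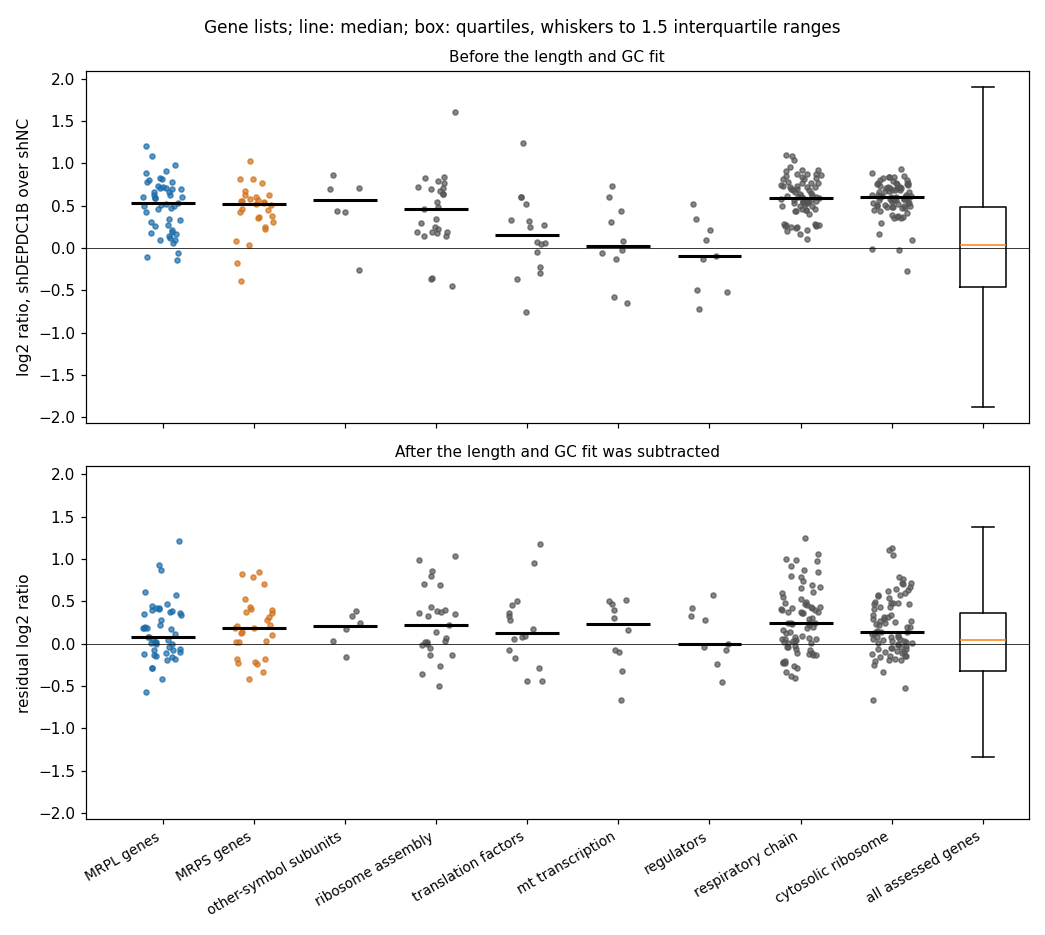
Log2 ratio of each assessed gene by list, shDEPDC1B over shNC, before (top) and after (bottom) the fit on length and GC was subtracted; black lines are list medians and the box shows all assessed genes (median 0.04 in both panels). Before the fit the large and small subunit medians are 0.53 and 0.52, and after it they are 0.08 and 0.19.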

How the data were processed

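RNA of 2 libraries was measured, 1 of shDEPDC1B and 1 of shNC, grouped by their treatment labels. The authors deposited estimated counts per gene symbol, made with Bowtie2 and RSEM on hg38 per the submitters' processing notes; the sources used here give no versions, gene annotation, strand or RNA selection. These estimated counts, deposited without scaling for depth, were rounded, and 699 of 39720 rows were not whole hundredths (tolerance 0.001). RSEM divides reads among similar genes by a model, so the 34 members with named pseudogenes (75 in GENCODE 29) and the 38 whose gene overlaps another coding gene carry further error; the 44 members without a pseudogene had a median log2 ratio of 0.54 and the 40 without an overlap 0.54.

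Libraries were scaled with TMM in edgeR 4.0.16 (R 4.3.3), with factors of 0.967 for shDEPDC1B and 1.03 for shNC; its tests need replicates and were not used. Clopper-Pearson 95% intervals of the share of counts in shDEPDC1B (scipy 1.17.1) cover counting error only, and PCR duplicates were not accounted for here. Each gene's length and GC content were taken from its longest coding transcript in GENCODE 29 (94.4% of assessed genes matched). The ratio and calling steps were checked on simulated data. Alternatives covered scaling (DESeq2 1.42.0, library totals, upper quartile), filters, rounding, a prior count of 2, trends, subunit placement and thresholds. Members, lists and tests were chosen with earlier results of these data known. Genes were named by rule: the 6 highest and 6 lowest members per subunit, the 3 most abundant per length, stalk and MRPS18 genes, MRPS30, MRPS36, values that are not whole hundredths, those next to the threshold, and the 2 highest and 2 lowest with at least 100 counts of other lists; further genes are named where a count is small. A comparison of protein sequences was not made here, and 1 marker gene is not reported here by name.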

Additional observations from a re-analysis of the deposited data

How the results depend on the processing

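No paired analysis was possible because each group has 1 library, and for the same reason no replicate could be left out. The count of members at least 1.5-fold higher (32) was 20 with library totals, 7 after a loess on length, 8 after the fit on length and GC, 3 at 2-fold, 56 at 25% higher, and 67 with no fold threshold (added after the data were seen); that of lower members (0) was 1 after the loess, 1 at the 25% threshold and 3 with no fold threshold. The shares of all assessed genes called with library totals and after the loess are not given here. The median over members (0.53) was 0.0677 after the loess and 0.15 after the fit. That of the large subunit (0.53) was 0.14 and 0.0778, and that of the small subunit (0.52) 0.0492 and 0.19. Sums of counts gave 0.42 and 0.32 (large and small) with DESeq2 size factors and 0.38 and 0.28 with library totals; trends were not subtracted from sums. The length-adjusted median (0.15) was 0.36 with no filter, 0.0706 with 100 or more counts and 0.32 with median coding lengths, where the cause was not tested. Among members named by rule and beyond counting error, signs turned for MRPL19 (-0.0034) with library totals. After the loess they turned for MRPL12 (-0.0652), MRPS24 (-0.0468) and MRPS30 (-0.18). After the fit they turned for MRPL12 (-0.29), MRPS24 (-0.23) and MRPS34 (-0.22). Signs also turned, for members within or near counting error of equality, in 13 further values of named members: MRPL14, MRPL39 and MRPL45 after both trends, MRPS35 after the loess, MRPL35 after the fit (to 0.19), MRPS23 with DESeq2 size factors, and MRPL14, MRPL39, MRPS23 and MRPS35 with library totals. In all, whether named by rule or not, 20 of the 73 members above 0 were below 0 after the fit and 27 after the loess. The other 105 values of main results moved by less than counting error or, for counts, 1.5 times, and 320 of the values of named members did not turn. Counting intervals of members had a median size of ±0.14 (log2), narrower for abundant members.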

Other observations

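Transfer RNAs of mitochondrial DNA, which deliver amino acids to the mitochondrial ribosome, were mostly higher as well. Of 20 assessed tRNA genes, 13 passed 1.5-fold upwards and none downwards, against 19.2% and 19.6% of all assessed genes and 48.8% upwards among those with transcripts below 1000 nucleotides. The median log2 ratio of the tRNAs was 0.75. TRNS1 had 6749 counts in shDEPDC1B and 2907 in shNC (1.29 [1.23, 1.36]), whereas TRNA had 1772 in shDEPDC1B and 1897 in shNC (-0.02 [-0.11, 0.08]). How much of each is read from longer precursors was not tested.

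Of the 78 members, 18 (23.1%) have a coding gene on the other strand that starts within 1000 bases upstream or slightly inside the member. The partners of MRPL13 and MRPL32 start inside. By the same rule 10.9% of 12332 assessed coding genes have such a partner. These pairs were looked at after the members' values had been seen. The pair MRPS11 and MRPL46 consists of 2 members whose starts lie 34 bases apart, at log2 ratios of 0.81 [0.69, 0.94] and 0.50 [0.33, 0.68]. The 16 partners that are not members had a median of 0.23, against 0.59 for the members they face, and the member was the higher one in 11 of 16 pairs. These partners are longer, with a median of 2473 nucleotides, against 1516 over all 78 members. The part of transcript length in this gap was not tested. MRPL50, at 0.63 [0.50, 0.76], faces ZNF189, which had 190 counts in shDEPDC1B and 452 in shNC (-1.17 [-1.42, -0.92]). MRPL36 and its partner NDUFS6, a respiratory chain gene, were at 0.78 [0.59, 0.96] and 0.55 [0.44, 0.66]. MRPL47, at 0.21 [0.06, 0.36], faces NDUFB5 at 0.96 [0.83, 1.09].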
